A study of Mus musculus with 4 samples.

Results

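The genes described here write, copy and remove the methyl mark on cytosine: the DNA methyltransferase genes Dnmt1, Dnmt3a, Dnmt3b and Dnmt3l, the maintenance partner gene Uhrf1, the oxidase genes Tet1, Tet2 and Tet3, and the glycosylase gene Tdg. They were chosen by gene symbol in the platform annotation, and the 9 genes hold 23 of the array's 45101 probe sets; 8 of the members are among the 18194 genes with a probe set of their own, while the probe sets of Tdg are shared with other genes. The arrays profiled transcripts of mouse ES (embryonic stem) cells with disrupted copies of BAF250, a subunit of the SWI/SNF chromatin remodelling complex, by hybridising total RNA of each culture to 1 Affymetrix array. Both copies of BAF250 were knocked out in the homozygous lines ko1 and ko2 and 1 copy in the heterozygous line, and the fourth array came from wild type ES cells; all cultures were feeder-free, on gelatin-coated plates with serum and leukaemia inhibitory factor (LIF). The labels do not say how the lines were derived, whether ko1 and ko2 are separate clones, or which part of the gene was altered.

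In mammalian cells DNMT3A and DNMT3B place methyl groups on unmethylated CpG sites, and DNMT3L, which has no catalytic activity, stimulates them. DNMT1 copies the pattern onto the new strand after replication, guided there by UHRF1, which binds hemimethylated DNA. The TET enzymes oxidise 5-methylcytosine, TDG excises the more oxidised forms, and base excision repair restores cytosine. Mouse ES cells are known for high Tet1 and Tet2 and for Dnmt3b and Dnmt3l, while Tet3 is better known from the oocyte and zygote.

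The 3 stretches of DNA upstream of member genes are shown because CpG sites are what these enzymes act on and because Tet1, Dnmt3b and Uhrf1 are 3 of the 4 members (Dnmt1 is the other) that lay lower in both homozygous lines than in both other arrays on the probe set used. The sequences are those of RefSeq on GRCm38.p6, 5′ to 3′ on the gene's strand, without bases inside the RefSeq bounds of a protein-coding gene; capitals mark each CpG. The Tet1 stretch is chr10:62887470-62887574 on the minus strand (105 bases, 7 CpG sites), that of Dnmt3b is chr2:153649199-153649410 on the plus strand (212 bases, 16 CpG sites) and that of Uhrf1 is chr17:56303087-56303336 on the plus strand (250 bases, 10 CpG sites).
Tet1: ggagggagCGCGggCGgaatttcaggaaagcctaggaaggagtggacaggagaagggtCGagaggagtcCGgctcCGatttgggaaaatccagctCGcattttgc
Dnmt3b: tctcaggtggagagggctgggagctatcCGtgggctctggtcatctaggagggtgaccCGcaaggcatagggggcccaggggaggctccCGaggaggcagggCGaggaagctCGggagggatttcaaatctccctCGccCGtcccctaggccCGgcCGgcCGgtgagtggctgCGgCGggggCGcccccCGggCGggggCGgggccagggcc
Uhrf1: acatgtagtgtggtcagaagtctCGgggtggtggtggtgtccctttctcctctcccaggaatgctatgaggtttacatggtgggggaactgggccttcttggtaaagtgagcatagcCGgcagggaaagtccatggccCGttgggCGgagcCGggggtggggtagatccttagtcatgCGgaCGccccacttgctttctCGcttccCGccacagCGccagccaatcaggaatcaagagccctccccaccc

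All 9 members matched the RefSeq promoter table, with 16 windows of 250 bases before a start among 32851 such windows, whose median held 6 CpG sites. The Tet2 window held 51 CpG sites, more than 99.9% of all windows, and the Dnmt3a windows held 38, 40 and 15. The 3 Dnmt3l windows held 5, 4 and 3, below the median, and the outermost Dnmt1 window 2 against 26 at its innermost start. The octamer ATGCAAAT bound by OCT4 was in none of the 16 windows on either strand (1.6% of all windows), nor was the SOX motif CTTTGTT (5.03%). The E2F motif TTTNGCGC was in 1 Dnmt1 and 1 Uhrf1 window, at the inner start in each, against 1.13% of all windows. That inner Uhrf1 window held 30 CpG sites, while the Uhrf1 stretch printed above is the outer one. The GC box GGGCGGG was in windows of Dnmt1, Dnmt3a, Dnmt3b, Dnmt3l and Uhrf1 but not of the Tet genes or Tdg, against 23.4% of all windows.

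The arrays differed in level and RNA quality. The median signal was between 2.61 and 2.74 in ko1, ko2 and heterozygous and 4.01 in wild type, so each array was shifted on the log2 scale by its median deviation over the tested genes, and differences are given on that shifted scale. The ratio of 3' to 5' actin control signal was 1.30 in wild type, 2.86 in heterozygous, 5.01 in ko1 and 2.61 in ko2. Background, taken as the brightest of 27 bacterial controls that were not spiked, was 7.57 in wild type, 6.92 in heterozygous, 5.55 in ko1 and 3.82 in ko2, and 10 of the 23 member probe sets exceeded it on all 4 arrays. The precision of every comparison is limited by the number of arrays. Only the homozygous group had 2, so tests between single genotypes took the spread of these lines for the other groups, which had 1 array each. The test against wild type and heterozygous together treated these genotypes as replicates of 1 group, so the difference between them entered its error. Arid1a, which encodes BAF250a, read 109.0 in wild type, 50.4 in heterozygous, 7.03 in ko1 and 3.57 in ko2 (homozygous minus wild type -3.58 ± 0.54 (SE), limma adjusted p = 0.0324), while Arid1b was below background on all arrays. The ko2 signal of Arid1a was itself below background.

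The question put to the members was whether their transcripts differ with the number of intact BAF250 copies. On the probe set used for each gene, Tet1 had the lowest homozygous values relative to wild type of all members. Uhrf1 and Dnmt1 were lower to a smaller extent, and Dnmt3b was lower in the homozygous lines than in heterozygous. The other probe sets gave -0.88 for Uhrf1 and -0.33 and 0.12 for Dnmt1 against wild type, and -0.53 for Dnmt3b against heterozygous. No member passed the test in any comparison. In homozygous minus wild type, 0 of 8 members tested were called by limma at an adjusted p of 0.05, against 0.269% of the 13730 genes tested; at an unadjusted p under 0.05 there was 1 member, Tet1, and 986 of all genes. Of the 37 genes called, 36 were higher (0.262% of all tested) and 1 lower. With signals as deposited, before the shift, Tet1 was the 1 member called, and of 140 called genes 55 were higher and 85 lower.

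**Figure D1:**
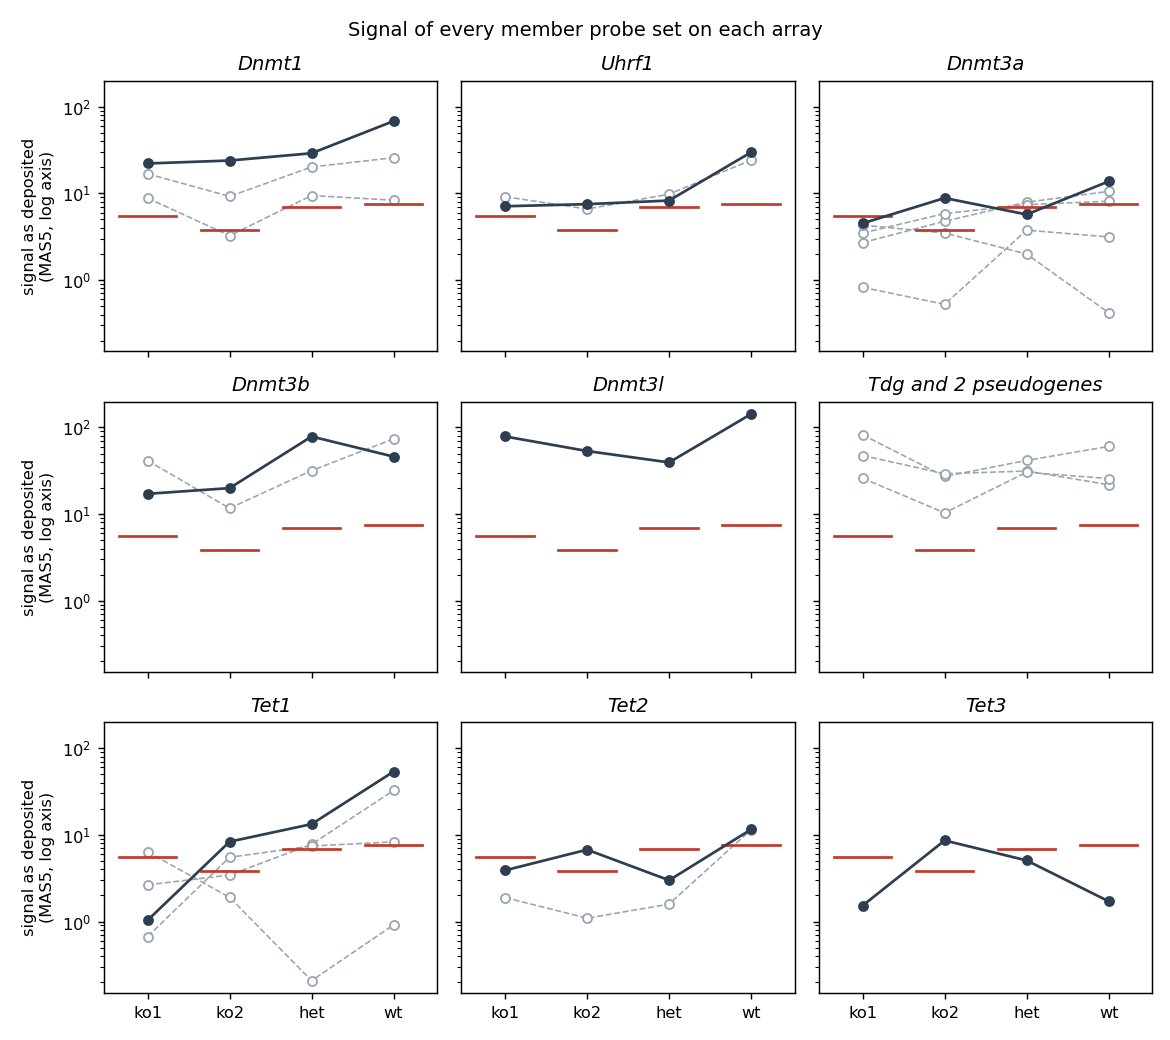
Signal as deposited (log axis) of every member probe set on each array (ko1, ko2, het for heterozygous, wt for wild type). Filled points and solid lines are the probe set used for a gene, open points and dashed lines the others (for Tdg, all are shared with pseudogenes), lines join the values of 1 probe set, and red bars are each array's background; on the Tet1 probe set used, the signal runs from 1.03 in ko1 to 53.6 in wild type.

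Among the oxidases, Tet1 stood furthest from wild type. On its brightest probe set the gene read 53.6 in wild type, 13.3 in heterozygous, 1.03 in ko1 and 8.33 in ko2. The lines without an intact copy were the lowest pair, ko1 below its background and ko2 above it. Homozygous minus wild type was -3.11 ± 0.97 (SE), 8.64-fold lower, and limma's adjusted p was 0.486. With ko1 set at its background the difference was -2.18, 4.53-fold lower. The lines stood apart from each other, at -4.39 (ko1) and -1.83 (ko2) against wild type. Against heterozygous the difference was -1.86 ± 0.97 (adjusted p = 0.79); it was -0.92 with ko1 at its background, -0.56 without ko1 and -3.13 without ko2. For heterozygous against wild type it was -1.25 ± 1.12 (adjusted p = 0.999). Against wild type and heterozygous together, the homozygous lines stood at -2.48 ± 0.69 (limma adjusted p = 0.073).

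The other Tet1 probe sets did not all repeat these differences. The second read 32.5 in wild type, 7.77 in heterozygous and 2.65 and 3.44 in ko1 and ko2. It too had wild type highest, then heterozygous, with both homozygous lines below background. The difference to wild type was -2.49 ± 0.80, with an adjusted p of 0.469 over all probe sets, and -1.97 with both lines set at their background, which is a bound. The third read 8.28 in wild type, 7.44 in heterozygous, 0.671 in ko1 and 5.51 in ko2. The order of signals was the same, but on the shifted scale ko2 (2.81) lay above wild type (2.58). Only ko1 was below background, and the difference was -0.96 ± 1.19, which turned to 0.15 with ko1 at its background. The fourth read 0.913 in wild type, 0.208 in heterozygous, 6.38 in ko1 and 1.90 in ko2, above background in ko1 alone, and was too dim to be tested. With the 4 probe sets averaged, homozygous minus wild type for Tet1 was -1.21 ± 0.78 (adjusted p = 0.749).

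**Figure D2:**
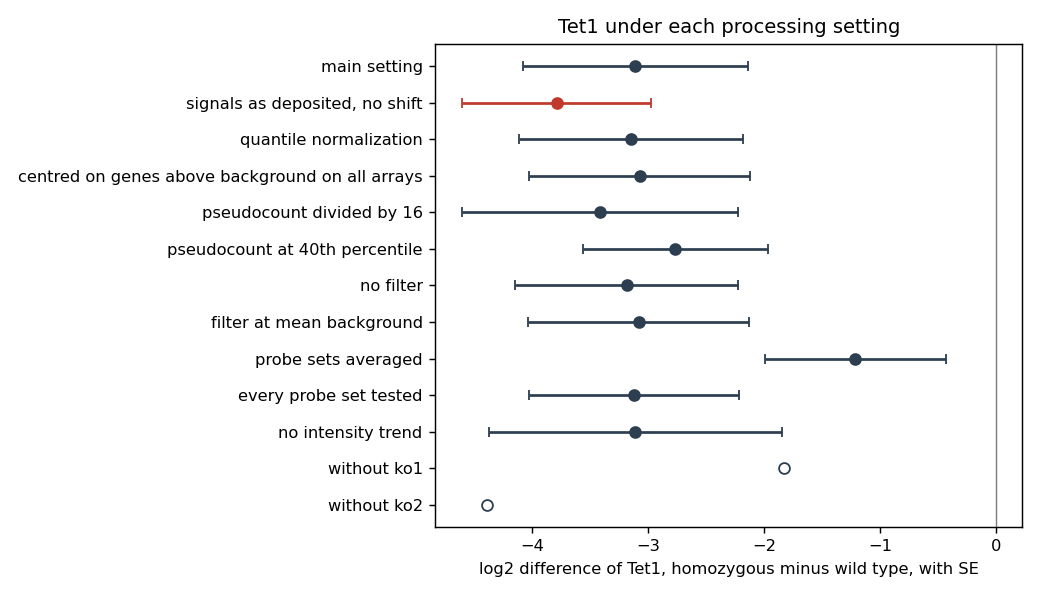
Log2 difference of Tet1, homozygous minus wild type, under each processing setting, with SE from limma; the red point is the setting with an adjusted p under 0.05 and open points, which leave out 1 homozygous line, have no test. Values run from -4.39 without ko2 to -1.21 with probe sets averaged, all below 0, and the call is made with signals as deposited.

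Tet2 was near background. On the probe set used it read 11.5 in wild type, 2.99 in heterozygous, 3.89 in ko1 and 6.74 in ko2, and on the other 11.5, 1.59, 1.89 and 1.09 in the same order. On both, wild type had the highest deposited signal, and ko1 and heterozygous were below background; on the shifted scale ko2 reached the wild type level on the first (3.07 against 3.03). The difference of homozygous minus wild type was -0.39 ± 0.92 on the first and -1.83 ± 1.29 on the second. With arrays below background set at it, these values were -0.17 and -0.52. Tet3 had 1 probe set, which read 1.71 in wild type, 5.07 in heterozygous, 1.53 in ko1 and 8.61 in ko2. It exceeded background in ko2 alone, so no fold is given, and its fitted difference of 1.60 ± 1.28 rests on signals around background.

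Tdg could not be measured by itself: each of its 3 probe sets is annotated to Tdg and 2 pseudogenes, so signal of the gene and its copies cannot be separated. These probe sets read 60.2, 21.8 and 25.7 in wild type, 41.6, 31.4 and 30.4 in heterozygous, 82.1, 47.4 and 25.9 in ko1 and 27.2, 29.2 and 10.3 in ko2. All were above background on every array, and ko1 exceeded ko2 on each. Homozygous minus wild type was 0.34 ± 0.55, 1.43 ± 0.49 and 0.06 ± 0.58, the second with an adjusted p of 0.543 over all probe sets.

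Of the maintenance genes, Dnmt1 read 68.1 in wild type, 29.0 in heterozygous, 22.1 in ko1 and 23.9 in ko2. The homozygous lines lay close together below both other arrays, and the difference to wild type was -0.86 ± 0.46, 1.82-fold lower (adjusted p = 0.766). Against heterozygous it was -0.35 ± 0.46 (adjusted p = 0.889). Its other probe sets read 25.8 and 8.34 in wild type, 20.2 and 9.45 in heterozygous, 16.8 and 8.81 in ko1 and 9.23 and 3.25 in ko2. Their differences to wild type were smaller, -0.33 ± 0.57 and 0.12 ± 0.85, and on the shifted scale ko1 was level with wild type on the first (4.15 in each) and above it on the second (3.26 against 2.59).

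Uhrf1 read 29.8 in wild type, 8.26 in heterozygous, 7.10 in ko1 and 7.51 in ko2 on the probe set used. On the other probe set it read 24.2, 9.80, 9.15 and 6.60 in the same order. On both, every array with a disrupted copy lay below wild type and all arrays were above background. Homozygous minus wild type was -1.25 ± 0.64, 2.38-fold lower (adjusted p = 0.752). Heterozygous cells stood at -1.06 ± 0.73 against wild type (adjusted p = 0.999). Homozygous and heterozygous differed by -0.19 ± 0.64, less than the error of that difference.

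Dnmt3b, a de novo methyltransferase gene, read 46.0 in wild type, 78.5 in heterozygous, 17.1 in ko1 and 19.9 in ko2 on the probe set used. Here heterozygous was the highest array and the homozygous lines the lowest. Homozygous minus heterozygous was -2.07 ± 0.46, 4.21-fold lower (unadjusted p = 0.0012, adjusted p = 0.182, limma), and against wild type it was -0.61 ± 0.46 (adjusted p = 0.845). Heterozygous exceeded wild type by 1.47 ± 0.53 (adjusted p = 0.999). Against both other arrays together the homozygous lines stood at -1.34 ± 0.42 (adjusted p = 0.137). The second probe set had another order, with 73.8 in wild type, 31.7 in heterozygous, 41.4 in ko1 and 11.7 in ko2. There ko1 exceeded heterozygous, and homozygous minus heterozygous was -0.53 ± 0.60. The high heterozygous value thus rested on 1 of the probe sets.

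Dnmt3l read 143 in wild type, 39.5 in heterozygous, 78.6 in ko1 and 53.4 in ko2. Its single probe set was above background on all arrays, with heterozygous lowest and wild type highest. The homozygous lines lay between, at -0.45 ± 0.43 against wild type (adjusted p = 0.878) and 0.68 ± 0.43 against heterozygous (adjusted p = 0.817). Heterozygous minus wild type was -1.13 ± 0.50, with an unadjusted p of 0.0483 and an adjusted p of 0.999 from limma.

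Dnmt3a read 13.7 in wild type, 5.71 in heterozygous, 4.51 in ko1 and 8.83 in ko2 on the probe set used, above background in ko2 and wild type only. On the shifted scale ko2 was above wild type and ko1 below heterozygous, so the groups overlapped, and homozygous minus wild type was -0.36 ± 0.81. Of its 5 probe sets, 2 were below background on every array. The other 2 read 10.5 and 8.12 in wild type, 7.91 and 7.40 in heterozygous, 2.71 and 3.49 in ko1 and 4.77 and 5.85 in ko2, with ko1 lowest on both.

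**Figure D3:**
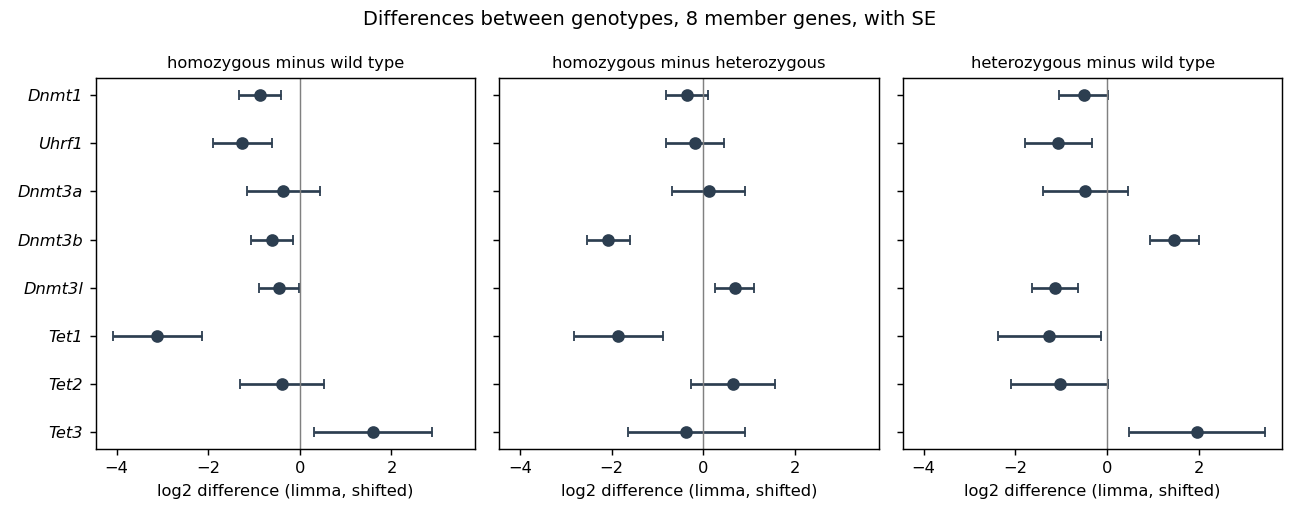
Log2 differences on the shifted scale for the 8 members with a probe set of their own, in homozygous minus wild type, homozygous minus heterozygous and heterozygous minus wild type; points are limma estimates and bars their SE. Tet1 has the lowest value in homozygous minus wild type (-3.11), and Dnmt3b lies at -2.07 in homozygous minus heterozygous and at 1.47 in heterozygous minus wild type.

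As a list, 7 of the 8 members tested stood below 0 in homozygous minus wild type, against 52.7% of all tested genes, with a median of -0.53 against -0.07 over all genes. Both homozygous lines lay below wild type in 5 members (33.3% of all genes) and above it in 1 (34.6% of all genes). In homozygous minus heterozygous the median was -0.27, 0 of 8 were called (0.262% of all genes called), and at an unadjusted p under 0.05 there was 1 member, Dnmt3b, and 903 of the 13730 genes. In that comparison 4 lay below (34.5% of all genes) and 2 above (34.6%). In heterozygous minus wild type the median was -0.77 and 6 of 8 stood below 0, against 49.0% of all genes, with 0 of 8 called and 2 at an unadjusted p under 0.05 (0% of all genes called, 430 of 13730 at an unadjusted p under 0.05). These comparisons share arrays, so the low position of a member against wild type in each uses the same wild type value. Against wild type and heterozygous together, ko1 and ko2 were each lower than the other arrays in Dnmt1, Dnmt3b, Uhrf1 and Tet1 (4 of 8, against 19.5% of all genes) and above them in none (20.1%). This count is of the probe set used for each gene. The second probe sets of Dnmt1, Uhrf1 and Tet1 kept the position, on Dnmt1 with ko1 level with wild type (4.15 in each). On the second of Dnmt3b ko1 lay above heterozygous (5.41 against 5.14). On the third of Dnmt1 ko1 lay above wild type (3.26 against 2.59), as did ko2 on the third of Tet1 (2.81 against 2.58). In this comparison 0 of 8 members were called by limma, against 1.44% of all genes, and 2 had an unadjusted p under 0.05, against 1427 of the 13730 genes. Without ko2, Tet1 and Dnmt3b were called there (2 of 8, with 3.53% of all genes), and without ko1 none; each of these fits had 1 homozygous array and took every variance from the trend, and Tet1 was below background in ko1.

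**Figure D4:**
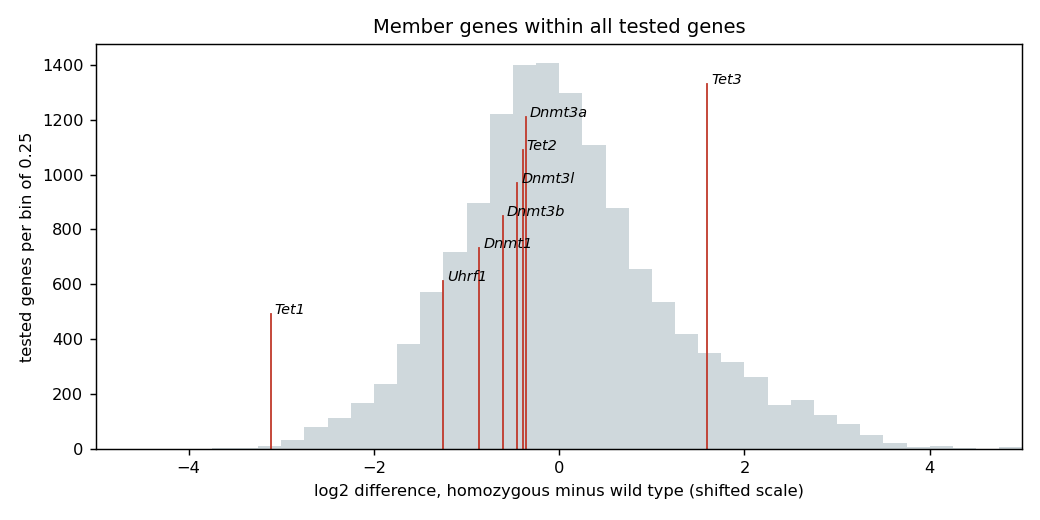
Number of tested genes per bin of 0.25 of the log2 difference, homozygous minus wild type, on the shifted scale (grey, shown from -5 to 5), with the 8 members marked by red lines whose height has no meaning. Tet1 at -3.11 lies in the lower tail, Tet3 at 1.60 on the upper side, and the other members between -1.25 and -0.36.

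The 3 genes whose pattern over the 4 arrays was nearest to Tet1, by Euclidean distance of centred log2 values, were Tigd5 (distance 0.39), Klf3 (0.67) and Pou5f1 (0.76). Tigd5 encodes a transposase-derived protein, and Klf3 a Kruppel-like repressor. In ko1 both genes read below background (1.17 and 3.07), as did Tet1 (1.03), so part of the likeness rests on signals below background. Pou5f1, the gene of the pluripotency factor OCT4, read 213 in wild type, 98.7 in heterozygous, 11.7 in ko1 and 42.1 in ko2, the same order as Tet1. With 4 arrays, such likeness describes these arrays only.

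Other genes of the pathway were counted from fixed lists. In homozygous minus wild type none of them was called. Of maintenance and targeting partners (17 of 17 tested, median -0.50) the furthest were Zfp57, which protects imprinted regions (-1.90 ± 0.77), and Pcna, the replication clamp (-1.45 ± 0.48). With ko2 at its background the Zfp57 difference was -1.66. Of methyl-CpG and CpG binding proteins (11 of 15 tested, median -0.71) they were Zbtb4 (-1.79 ± 1.09) and Zbtb38 (1.37 ± 1.15), or -0.70 and 0.38 with dimmer arrays set at background; Zbtb4 exceeded background in wild type alone and Zbtb38 in the homozygous lines alone. Base excision and demethylation partners (13 of 16 tested) had a median of 0.13. Parp1, a DNA damage sensor, stood at -2.81 ± 1.18 (-2.30 with ko1 at its background) and Gadd45b at 2.64 ± 0.94 (1.06 with wild type at its background). The Parp1 signal was 127 in wild type, 43.9 in heterozygous, 2.41 in ko1 and 41.3 in ko2, with ko2 close to heterozygous. Genes of methyl donor and 2-oxoglutarate metabolism (15 of 19 tested, median -0.25) were led by Gldc, of the glycine cleavage system (-1.44 ± 0.50), and Mtrr (-0.76 ± 0.94, or -0.41 with ko2 at its background).

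Transcription factors known to act on the members stood lowest of the pathway lists (11 of 13 tested, median -1.77). Of these factors, 4 are also ES cell markers below. Otx2 stood at -2.82 ± 1.04 (-1.50 with dimmer arrays set at background, which it exceeded in wild type alone) and Pou5f1 at -2.53 ± 0.69. Germline genes listed as silenced by promoter methylation were mostly too dim to test (7 of 23 tested, median -0.09). The furthest were Stk31 (2.77 ± 1.30) and Zfp42 (-1.48 ± 0.55). Stk31 read 0.420 in wild type, and its difference was 0.31 with dimmer arrays set at background. Zfp42, an ES cell marker as well, was not silent in these cells: it read 45.3 in wild type and exceeded background on all 4 arrays. Against wild type and heterozygous together, 5 genes of these lists fell (0.35% of all tested genes did): Pcna (-1.41 ± 0.34, limma adjusted p = 0.0271), the base excision gene Apex1 (-1.38 ± 0.33), Pou5f1 (-2.34 ± 0.43), Sox2 (-2.08 ± 0.44) and Esrrb (-1.76 ± 0.41). Those 5 were named after their values were seen.

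Markers of cell types were summed and tested as well. Of 12 ES cell markers 0 were called in homozygous minus wild type (0.269% of all tested genes were). Their median was -2.11, and both homozygous lines lay below wild type in 11 (33.3% of all tested genes did). Their summed signal, scaled by the array shift, was 2323 in wild type, 2193 in heterozygous, 799 in ko1 and 1035 in ko2. Of 15 extraembryonic endoderm markers tested, 8 rose (median 3.74; 0.262% of all tested genes rose), among them Gata4, Sparc and the type IV collagen genes, and the sum was 124 in wild type and 143 in heterozygous but 7400 and 4560 in ko1 and ko2. The other 7 endoderm markers tested, Amn among them, were not called. Afp was below background on every array and was not tested. The trophoblast sum was 81.9 and 138 against 485 and 406 in the homozygous lines, but the median difference to wild type was 0.23. Of the 10 tested 1 was called (Krt18), and Cdx2 and Eomes were at or near background. The fibroblast sum was 64.4 and 35.5 against 156 and 153, with 0 of 8 called. Against wild type and heterozygous together, 7 of 12 ES cell markers fell (0.35% of all tested genes fell). In that comparison 12 of 15 endoderm, 2 of 10 trophoblast and 2 of 8 fibroblast markers rose (1.09% of all tested genes rose). Neural markers summed to 23.5 and 35.8 against 38.3 and 28.2, with 0 of 4 called. The part of these markers, and of the actin ratio, in the values of Tet1 and the other members was not tested. In such bulk samples, fewer cells of a type and less RNA per cell cannot be told apart.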

How the data were processed

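Total RNA was extracted with Trizol and labelled with biotin from 8 microgram per sample, as the labels' protocols state. The authors deposited linear signal intensities per probe set, made with MAS5 per the submitters' processing notes; neither its version nor its target for scaling is given in the sources used here. Of 45101 probe sets, 34958 had 1 gene symbol in the platform annotation, 932 several and 9211 none. A gene was represented by the brightest of its probe sets on average. The test took genes whose mean signal passed 2.55 (the 40th percentile of probe sets), 8 of the 9 members among them; of the 23 member probe sets, 21 passed. Signals became log2(signal + 0.675), the pseudocount being the 20th percentile, which shrinks folds of dim genes. It lies below the background of every array (3.82 to 7.57), so a fold can still rest on signals below background. The Tet1 fold against wild type, for example, went from 8.64 to 4.53 with ko1 at its background. Each array was then shifted by the median over tested genes of its deviation from the gene mean, so that values and tests share 1 scale; earlier results of these data had tested unshifted signals.

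The test was limma 3.58.1 in R 4.3.3 (lmFit, contrasts, eBayes with an intensity trend, Benjamini-Hochberg over all genes, threshold 0.05, two-sided) with 1 mean per genotype and 1 residual degree of freedom, or with 2 group means and 2. The total after borrowing across genes was 9.84 and 25.2 degrees of freedom. Probe sets were also tested singly, over 27022. Since no label tells of separate cultures within a genotype, the p-values measure the spread between these samples only, which may be technical. The fit was tested on simulated data, where false calls made up more of the calls than the threshold allows. True changes were also missed: in homozygous minus wild type 26% of simulated log2 changes of 2 and 75% of changes of 4 were called. An absent call therefore does not show an absent change. The named genes were all members, the largest differences of each pathway list (or its called genes) and the 3 nearest to the member furthest from 0. Members and lists were chosen with earlier results of these data known. Alternatives were the scaling, pseudocount, filter, choice of probe set, trend and left-out arrays. Without the trend each difference was unchanged and 0 genes were called in any comparison. The filters and the test of every probe set kept each gene's probe set, so differences could move only with the arrays' shifts. In heterozygous minus wild type, genes were called only with signals as deposited. Agreement under these alternatives is therefore no evidence of robustness. No depth applies to arrays.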

Additional observations from a re-analysis of the deposited data

How the results depend on the processing

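Of 348 member differences tested under alternatives (not all free to change), 328 kept direction and side of the threshold. Another 5 gained a call and 15 changed sign. Of 48 untested, which left out a homozygous line, 44 kept direction and 4 changed sign. With signals as deposited, 1 member was called in homozygous minus wild type, Tet1 (-3.79, limma adjusted p = 0.00696, with 1.02% of all genes called). Under the other tested alternatives its adjusted p there was 0.299 to 0.749. Against both other arrays together, Tet1 was also the 1 member called as deposited (-2.81, limma adjusted p = 0.0228, 0.655% of all genes called). All variances there came from the trend. As deposited, the members' median moved to -1.21 in homozygous minus wild type and -1.47 in heterozygous minus wild type, while the median of all genes moved to -0.75 and -0.68. With the pseudocount at the 40th percentile Tet1 was called in the comparison with both together (1 member, -2.14, limma adjusted p = 0.0422, with 1.62% of all genes called). Leaving out 1 array there gave 0 to 2 members called, with Tet1 at -3.76 and Dnmt3b at -1.52 without ko2, where limma took all variances from the trend; Tet1 was -1.20 without ko1 (adjusted p = 0.345) and Dnmt3b -0.61 without heterozygous (adjusted p = 0.848). With probe sets averaged, the heterozygous minus wild type median was -0.25. The median of homozygous minus heterozygous ran from -0.44 without ko2 to 0.22 without ko1.

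The sign changes concerned uncalled values. With probe sets averaged they were Dnmt1 (0.13) and Dnmt3a (0.56) in heterozygous minus wild type, Dnmt3a in homozygous minus heterozygous (-0.50) and minus wild type (0.054), and Tet2 against both together (-0.47). As deposited, Dnmt3l and Tet2 stood at -0.21 and -0.20 against both together. Leaving out ko2 or ko1 gave -0.87 or 0.16 (Dnmt3a) and -0.82 or 0.043 (Tet2) against wild type, and -0.40 or 0.64 (Dnmt3a) and -1.48 or 0.76 (Tet3) against heterozygous. Against both together, Dnmt3a ran from -0.63 without ko2 to 0.40 without ko1, Dnmt3l from -0.45 without heterozygous to 0.68 without wild type, Tet2 from -0.39 without heterozygous to 0.64 without wild type and Tet3 from -0.50 without ko2 to 1.74 without ko1. The cause of these changes was not tested.

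The count of all called genes in homozygous minus wild type, 37, became 140 as deposited, 77 centred on genes above background, 100 with every probe set tested, 24 with a sixteenth (1/16) of the pseudocount, 23 with probe sets averaged and 0 without the trend. In homozygous minus heterozygous, 36 became 104, 66, 70, 22, 15 and 0, and against both together 198 became 90 as deposited, 26 averaged, 0 without the trend, 484 without ko2, 82 without wild type and 80 without heterozygous. The count of 0 in heterozygous minus wild type became 2 as deposited. No paired analysis was possible because only the homozygous group had more than 1 sample. Signals below background on some arrays limit Tet1, Tet2, Tet3 and Dnmt3a.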
